A study of Mus musculus with 6 samples.

Results

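Maff and 7 genes of the antioxidant response (Nfe2l2, Hmox1, Nqo1, Gclm, Gclc, Srxn1 and Txnrd1) were followed across coronal sections of the mouse brain. They were taken by gene symbol and are 8 of the 19465 genes counted. Maff was selected on its CPM, which was higher in aged than in adult sections, so that comparison is described for Maff and not tested. The other 7 genes are its pathway partners and were tested. The sections came from male C57BL/6J mice that received no treatment, with 2 biological replicates each at P21 (postnatal day 21), in adults (12 to 15 weeks) and in aged mice (28 months). P21 and adult sections lay directly on Visium version 1 slides, whereas probes of the aged sections were transferred by the CytAssist instrument to version 2 slides. Slide version and age therefore cannot be told apart in any aged vs. adult value, and the P21 and aged comparisons share the same 2 adult sections.

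NRF2, the protein of Nfe2l2, is held low by KEAP1, which marks it for degradation, and escapes when cells meet oxidants or electrophiles. It then pairs with a small Maf protein and binds antioxidant response elements. MAFF is a small Maf: it can bind DNA but has no activation domain of its own, so pairs of small Mafs repress and pairs with NRF2 activate. Among the targets, Hmox1 encodes haem oxygenase 1, which breaks down haem, and Nqo1 encodes a quinone reductase. Gclm and Gclc encode the modifier and catalytic subunits of the enzyme that limits glutathione synthesis. Srxn1 encodes sulfiredoxin, which restores overoxidised peroxiredoxins, and Txnrd1 encodes cytosolic thioredoxin reductase.

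The stretch of 250 bases before the start of a transcript is shown for the genes whose window holds a match to an antioxidant or Maf response element, because these elements are what MAFF and NRF2 bind at their targets. Sequences are from RefSeq (GRCm38.p6), which gave 10 windows for 6 of the 8 genes and none for Hmox1 and Gclc. Capitals mark TGACNNNGC, the core of the antioxidant response element, or TGANTCAGC, a Maf-type site, each searched on both strands and each 9 letters long. A match stood in 5 of the 10 windows.
Maff, chr15:79346371-79346620, plus strand: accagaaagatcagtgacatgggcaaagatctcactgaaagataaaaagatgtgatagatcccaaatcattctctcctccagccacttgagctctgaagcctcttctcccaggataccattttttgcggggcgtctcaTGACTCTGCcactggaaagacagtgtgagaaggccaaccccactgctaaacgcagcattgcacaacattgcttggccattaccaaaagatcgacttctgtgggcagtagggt
Nfe2l2, chr2:75704664-75704913, minus strand: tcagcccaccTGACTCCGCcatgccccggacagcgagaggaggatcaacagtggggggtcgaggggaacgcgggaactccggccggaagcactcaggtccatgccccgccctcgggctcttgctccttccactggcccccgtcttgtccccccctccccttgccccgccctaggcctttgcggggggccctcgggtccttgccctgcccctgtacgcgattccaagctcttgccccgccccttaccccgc
Gclm, chr3:122245307-122245556, plus strand: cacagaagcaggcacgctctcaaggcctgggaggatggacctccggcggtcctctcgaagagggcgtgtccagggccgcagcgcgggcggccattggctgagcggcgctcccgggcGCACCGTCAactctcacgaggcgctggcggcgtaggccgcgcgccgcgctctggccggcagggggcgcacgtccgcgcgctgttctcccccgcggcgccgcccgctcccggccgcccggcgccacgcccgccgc
Srxn1, chr2:152105274-152105523, plus strand: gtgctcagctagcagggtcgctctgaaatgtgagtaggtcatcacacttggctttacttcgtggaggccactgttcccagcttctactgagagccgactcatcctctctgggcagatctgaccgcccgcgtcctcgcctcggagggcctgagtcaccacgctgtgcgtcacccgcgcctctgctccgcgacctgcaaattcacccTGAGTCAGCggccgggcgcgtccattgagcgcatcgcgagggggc
Txnrd1, chr10:82858956-82859205, plus strand: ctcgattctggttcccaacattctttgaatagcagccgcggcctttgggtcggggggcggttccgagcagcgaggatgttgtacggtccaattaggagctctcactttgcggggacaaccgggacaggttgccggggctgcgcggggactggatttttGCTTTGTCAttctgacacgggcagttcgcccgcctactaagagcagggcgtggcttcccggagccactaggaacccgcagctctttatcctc
The core was on the same strand as the gene for Maff, at 112 to 104 bases before the start, and for Nfe2l2, at 240 to 232 bases. It was on the opposite strand for Gclm (134 to 126 bases) and for Txnrd1 (92 to 84 bases), which is why it reads there as the reverse complement. Srxn1 carried the Maf-type site 45 to 37 bases before its start. The other windows of Maff and Txnrd1 and the window of Nqo1 held neither. Over all 32851 promoter windows of this length, 10.2% held TGACNNNGC and 1.02% held TGANTCAGC. A match describes these letters only.

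Each section was measured in 2917 to 3679 spots, and the sections held 42422997 to 106783660 UMIs, or a median of 12074.5 to 25535 per spot. A spot holds several cells, so fewer cells of a type and less RNA per cell cannot be told apart. Spots were clustered without the 8 genes and other stress and pathway genes and given to anatomical zones by marker panels: fiber tracts (FT), cortex (CTX), striatum (STR), hippocampus (HP), hypothalamus (HY) and thalamus (TH), with smaller ventricular (VS), reticular thalamic (RT) and meningeal (MEN) zones. A second assignment by marker panels alone put 87.0% to 90.6% of the spots of a section in the same zone. Levels are CPM, UMIs of a gene per 1000000 UMIs of the section or zone, after TMM scaling unless called plain. They are compared within a gene only, since each gene is read by its own probes. The share of all genes without overlap between ages was not counted, so statements of overlap are descriptions. A gene was called higher or lower where edgeR's quasi-likelihood test gave an adjusted p under 0.05 over all genes and the fold exceeded 1.5.

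Of the 8 genes, Maff was the furthest apart between adult and aged sections. Over whole sections it stood at 2.18 and 2.94 CPM at P21, at 1.65 and 1.59 CPM in adults and at 12.5 and 9.03 CPM in aged mice. Both aged sections lay above all 4 younger ones, and the difference between means was 2.72 on the log2 scale (6.61-fold), in a comparison where 28.4% of all genes were called. Behind these values are 85 and 79 UMIs of adult tissue, against 1056 and 1028 of aged tissue. Leaving the scaling out (plain CPM) moved the median of all genes in aged vs. adult from 0.041 to 0.15 on the log2 scale.

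**Figure D1:**
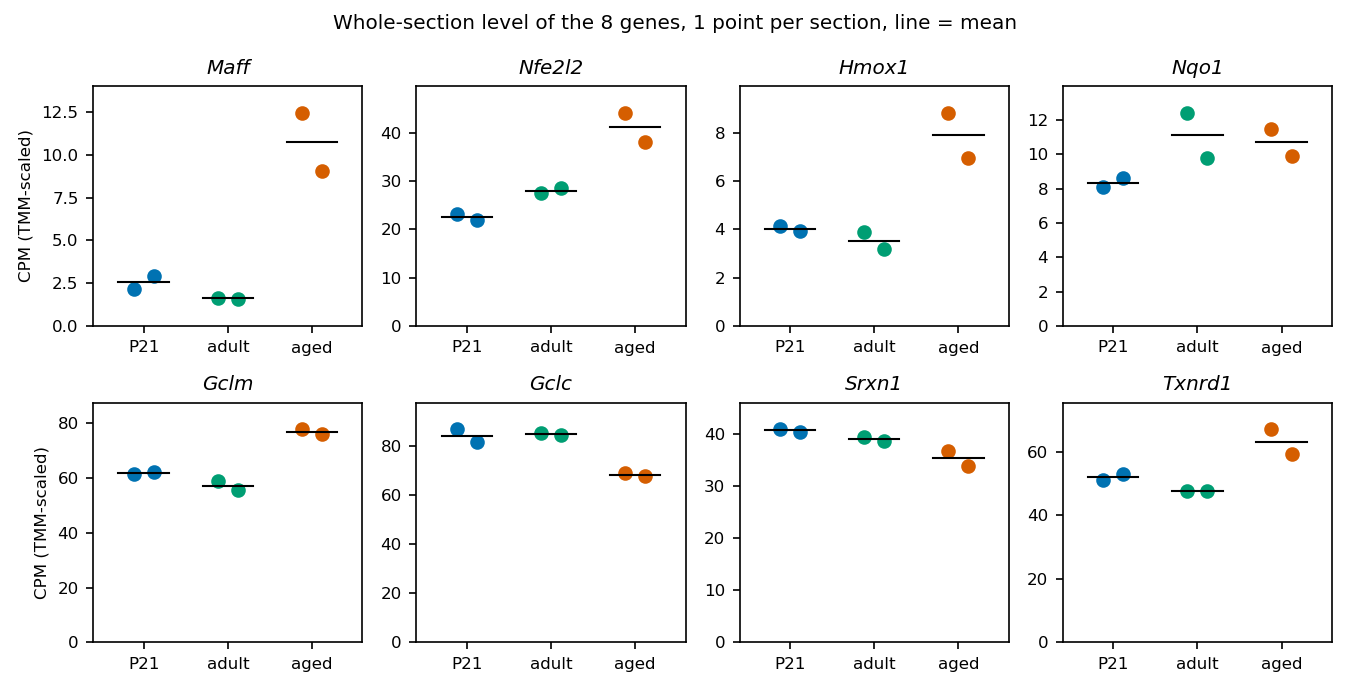
Level of each of the 8 genes over whole sections (y axis, TMM-scaled CPM, starting at 0) by age, with 1 point per section and a line at the mean of the 2 sections. Maff reached 12.5 and 9.03 CPM in aged sections against 1.65 and 1.59 CPM in adults, whereas Nqo1 overlapped between those ages.

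The Maff difference was present in every zone. In FT, adult sections had 1.77 and 1.55 CPM (11 and 10 UMIs) and aged sections 27.0 and 23.5 CPM (139 and 126 UMIs), a log2 difference of 3.91. In CTX the values were 0.71 and 0.60 CPM in adults (10 and 7 UMIs) and 11.2 and 7.83 CPM in aged sections (287 and 288 UMIs), a log2 difference of 3.83. These were the zones of the widest differences. HP, TH, HY and STR followed at 2.82, 2.63, 2.70 and 2.49, RT at 3.42, VS at 2.42 and MEN at 1.40. In RT, Maff had 0 UMIs in adult section 2, a count that allows up to 2.33 CPM, counting error only. The groups did not overlap in any of the 9 zones. Maff was chosen for this difference, so the lack of overlap is a description, and the share of all genes without overlap was not counted. Of all genes, 6.63% were called in VS, 12.1% in MEN and 17.3% in RT.

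Many genes near 0 on version 1 slides had low counts on version 2 slides, and these are given beside Maff. Of the 4531 genes at no more than 0.3 CPM in every P21 and adult section, the median in FT was 0 in adult sections and 0.778 and 0.754 plain CPM in aged sections, with 99th percentiles of 3.70 and 4.34. In CTX the medians of the near-silent genes were 0.155 and 0.167 plain CPM in aged sections and their 99th percentiles were 0.734 and 0.743. Together these genes held 0.423% and 0.401% of the UMIs in aged FT, and 0.0793% and 0.0936% in aged CTX. The part of this shift in the values of Maff and the other 7 genes, and in their zone differences, was not tested.

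Immediate early and acute stress genes were called higher with age in some zones and not in others. In CTX, 14 of 20 were higher and 0 lower (median 0.72), against 7.91% of all genes higher, and in FT 11 of 20 against 18.3%. Those called higher were 9 of 20 in HP, 6 of 20 in HY, 6 of 19 in STR, 4 of 19 in TH, 12 of 20 in MEN, 2 of 14 in RT and 0 of 18 in VS, with 1 lower in MEN and 2 in RT. Of all genes, 6.71% were higher in HY, 8.05% in STR, 7.59% in TH, 7.97% in RT and 2.29% in VS. In either direction, 11.5% were called in HP and 12.1% in MEN. Their summed level in CTX was 1230 and 1032 plain CPM in adult and 2698 and 2422 in aged sections. In TH it was 999 and 889 in adult and 922 and 1006 in aged sections, in VS 1036 and 861 against 1016 and 911, and in RT 1007 and 903 against 788 and 765. Both aged sums lay above both adult sums in CTX, HP, HY, STR, FT and MEN, and not in TH, VS or RT. Heat shock genes were called higher for 4 of 7 in CTX and 5 of 7 in FT. Their part in the Maff values was not tested.

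The adult sections on which Maff was chosen also serve its P21 vs. adult comparison, so its tests there are not independent of that choice. At P21, Maff was higher than in adults in CTX, with 1.47 and 2.42 CPM against 0.71 and 0.60 CPM. The log2 fold change was 1.40 (SE 0.44, adjusted p = 0.0401), where 4.51% of genes were called higher. This call rests on 35 and 19 UMIs at P21 and 10 and 7 in adults, and it was lost when any of the 4 sections was left out, with adjusted p = 0.0737 without P21 section 1, 0.154 without P21 section 2, 0.0822 without adult section 1 and 0.115 without adult section 2. The call was also lost when thinned to the lowest total (adjusted p = 0.123), with the replicate block (0.0691) and with marker-panel zones (0.0875). In the other main zones the P21 difference of Maff ranged from -0.29 in STR to 0.71 in HY, and it was 1.99 in RT, 1.17 in VS and -0.51 in MEN, with no call. Over whole sections it was 0.63 (SE 0.21, adjusted p = 0.0550), and DESeq2 placed it past the threshold (0.64, adjusted p = 0.0394).

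Nfe2l2, the transcript of NRF2 itself, was higher in fiber tracts than in the other 5 main zones at every age, and it rose further there in aged mice. Its FT level was 37.3 and 38.5 CPM at P21, 46.7 and 48.2 CPM in adults, and 165 and 162 CPM in aged sections. The 2 sections of each age lay close together and no ages overlapped, which is a description. In adults, MEN (69.3 and 90.1 CPM) and VS (73.0 and 65.2 CPM) stood above FT. The aged vs. adult log2 fold change was 1.78 (SE 0.088, adjusted p = 1.36e-12), a 3.44-fold rise in a zone where 18.3% of genes were called higher. It remained past the threshold under all 14 alternatives, from the marker-panel zones to leaving out any section. The study's supplement gives the opposite direction: it lists Nfe2l2 among genes lower in aged fiber tracts. That list came from a Wilcoxon test over spots of the study's own clusters, with its own scaling. Why the directions differ was not tested.

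Nfe2l2 also rose in 4 of the other 5 main zones, by less, and in RT (0.999, adjusted p = 0.000361), with VS at 0.96 (adjusted p = 0.0675). In STR it went from 22.4 and 18.7 CPM in adults to 47.0 and 44.2 CPM in aged sections (log2 fold change 1.14, adjusted p = 4.05e-05, background 8.05% higher). The changes in CTX (0.69, background 7.91%), TH (0.66, background 7.59%) and HY (0.60, background 6.71%) lay near the fold threshold of 1.5. Leaving out adult section 1 lowered CTX to 0.53 and HY to 0.56, and leaving out aged section 1 lowered TH to 0.57 and HY to 0.56, each below that fold. CTX was also below it with marker-panel zones (0.58) and with inner spots (0.57), and HY with no filter on low counts (0.58). HP stood at 0.52 (adjusted p = 0.0288), short of the fold, and at 0.69 without aged section 2 and 0.66 when thinned, past it. The change differed between zones (interaction, adjusted p = 2.19631e-07, against 38.8% of genes called), with HP lowest and FT highest. Depth also moved unlike between zones. Median UMIs per spot were 17592 and 14875.5 in adult FT and 10978.5 and 12784.5 in aged FT. In CTX they were 18987 and 15526 in adult and 31077 and 44684 in aged sections. The part of depth in the zone differences of the 8 genes was not tested.

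Averaged over the whole section, Nfe2l2 was at 27.5 and 28.6 CPM in adults and at 44.2 and 38.2 CPM in aged mice. The aged sections were both higher, but the 1.47-fold difference (log2 0.55, SE 0.079, adjusted p = 0.000211) was below the fold required for a call. Without aged section 2 (0.66), with plain CPM (0.66) and when thinned (0.59) it was above that fold. At P21 the level was 23.2 and 22.0 CPM, below both adult sections (-0.31, SE 0.081, adjusted p = 0.0175), again short of the fold. Among the 6 main zones at P21, TH was lowest against adult (-0.48, adjusted p = 0.0141) and STR highest (0.34), and the zones differed (interaction, adjusted p = 0.0248958, 9.22% of genes called). That interaction was lost without P21 section 1 (0.436), P21 section 2 (0.0919), adult section 1 (0.224) or adult section 2 (0.122), with marker-panel zones (0.0704) and with inner spots (0.403). In MEN, Nfe2l2 fell by 0.70 on the log2 scale at P21 (adjusted p = 0.0105, 2.11% of genes lower), and VS stood at -1.05 (adjusted p = 0.198).

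Hmox1 rose with age over the whole section and in 5 of the 6 main zones. Its whole-section level was 4.14 and 3.93 CPM at P21, 3.89 and 3.18 CPM in adults, and 8.83 and 6.94 CPM in aged mice. The 4 younger sections spanned 3.18 to 4.14 CPM and both aged sections stood above them. The aged vs. adult log2 fold change was 1.15 (SE 0.16, adjusted p = 0.000163), which made Hmox1 the single call among the 7 tested genes over whole sections, where 23.8% of all genes were higher.

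In FT, Hmox1 went from 3.86 and 3.58 CPM in adults to 22.6 and 19.9 CPM in aged mice, on 24 and 23 against 116 and 107 UMIs. That change of 2.51 (SE 0.22, adjusted p = 8.34e-09) was the largest of the tested group in any zone and held under all 14 alternatives. CTX followed at 1.55 (SE 0.26, adjusted p = 0.000393), from 3.32 and 1.54 to 7.92 and 6.80 CPM. STR (1.45), HY (1.36) and TH (0.87) were called too. These 3 calls rest on few counts: TH was lost without adult section 1 (adjusted p = 0.109), adult section 2 (0.114) or aged section 1 (0.141), HY without adult section 2 (0.0715), and STR without adult section 2 (0.146) or aged section 1 (0.262). The TH call was also lost with DESeq2 (adjusted p = 0.120), with no filter on low counts (0.0511), when thinned (0.0897) and with inner spots of the zone (0.0590), and the STR call with DESeq2 (0.0745). HP was at 0.55 (adjusted p = 0.0936). The change differed between zones (interaction, adjusted p = 0.00307618), a call lost without adult section 2 (0.101). No zone was called for Hmox1 between P21 and adult.

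Nqo1 was highest in the ventricular and meningeal zones, and FT was the only main zone where it was called with age. Its change was not called as different between the main zones (interaction, adjusted p = 0.0683 in aged vs. adult and 0.561 in P21 vs. adult). With plain CPM the aged vs. adult interaction passed (adjusted p = 0.0480). In VS its level was 22.5 and 30.7 CPM at P21, 93.1 and 50.0 CPM in adults, and 108 and 46.4 CPM in aged sections. The sections of 1 age lay far apart there, and the VS zone held few spots (338 over 6 sections). Choroid plexus markers in VS summed to 45007.5 and 51699.9 plain CPM at P21 and 106556 and 65749.1 in adults. In aged sections the sums were 108874 and 65662.5, and over the 6 sections they ranked as Nqo1 did. The part of choroid plexus content in the Nqo1 values was not tested. In MEN the P21 sections had 18.7 and 15.7 CPM, the adult sections 39.7 and 23.8 CPM, and the aged sections 31.1 and 32.3 CPM. Nqo1 was lower at P21 than in adults in MEN (-0.90, SE 0.25, adjusted p = 0.0364), whereas VS (-1.52, adjusted p = 0.207) missed the threshold. Calls in VS, RT and MEN, for any gene, were not checked under the alternative settings.

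In FT, Nqo1 climbed from 8.07 and 9.96 CPM at P21 through 14.5 and 12.9 CPM in adults to 23.7 and 23.3 CPM in aged mice. The ages did not overlap, which is a description. The P21 value was 0.65 lower than adult on the log2 scale (log2 fold change -0.65, SE 0.19, adjusted p = 0.0191), where 3.89% of genes were lower. The aged value was 0.78 higher (SE 0.17, adjusted p = 0.000528). The P21 call was lost without P21 section 1 (-0.49, adjusted p = 0.215) or adult section 1 (-0.56, adjusted p = 0.122), with DESeq2 (adjusted p = 0.149), when thinned (0.0800) and with marker-panel zones (-0.43, adjusted p = 0.0999). The aged call was lost with marker-panel zones, where it was 0.57. Of all FT calls at P21, 59.0% were higher, against 46.8% with plain CPM. Over whole sections Nqo1 did not pass in aged vs. adult (-0.056, 95% interval -0.31 to 0.20), and its sign turned in plain CPM (0.049) and without adult section 1 (0.11) or aged section 2 (0.054).

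The 2 subunits of glutamate-cysteine ligase lay on opposite sides of their adult levels in aged sections. Gclm was 58.6 and 55.7 CPM over adult sections and 77.7 and 76.0 CPM over aged sections, a log2 fold change of 0.43 (SE 0.067, adjusted p = 0.000363) that was short of the required fold. Gclc was 85.3 and 84.4 CPM in adults and 69.0 and 67.8 CPM in aged mice (-0.31, SE 0.066, adjusted p = 0.00192), likewise short. The adult and aged sections overlapped for neither gene, but the share of all genes without overlap was not counted. At P21 both genes were near adult levels, with Gclm at 61.5 and 62.0 CPM and Gclc at 86.9 and 81.6 CPM.

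Gclm, the modifier subunit, rose in FT from 67.2 and 57.5 to 116 and 118 CPM (0.91, SE 0.093, adjusted p = 7.17e-08) and in HY from 66.2 and 55.2 to 89.0 and 99.96 CPM (0.64, adjusted p = 0.0048). The HY call fell below the fold without adult section 2 (0.51) or aged section 2 (0.55). Its other main zones lay between 0.44 in STR and 0.58 in HP, all with adjusted p under the threshold. Their folds were under 1.5, from 1.35 in STR to 1.498 in HP. Under the alternatives the STR value ran from 0.27 to 0.64. HP passed without adult section 2 (0.60) or aged section 2 (0.65) and when thinned (0.59), and STR without adult section 1 (0.64). Gclm was also called in RT (0.70, background 7.97% higher) and VS (0.89, adjusted p = 0.0257, background 2.29% higher). Gclc, the catalytic subunit, was called in none of the 9 zones, with log2 fold changes from -0.27 in VS to -0.064 in MEN. At P21, Gclm in FT was 83.4 and 78.1 CPM, above both adult sections (0.38, adjusted p = 0.00605), short of the fold.

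Srxn1 was called in neither comparison, over whole sections or by zone. Its whole-section level was 41.0 and 40.5 CPM at P21, 39.4 and 38.8 CPM in adults, and 36.8 and 33.9 CPM in aged mice. The aged sections lay below both adult sections by a small step (-0.15, approximate 95% interval -0.27 to -0.017, adjusted p = 0.0751). Its aged vs. adult values in the main zones ran from -0.16 in HP to 0.21 in STR, and VS was at -0.42. Its FT difference was -0.0023 with a 95% interval of -0.30 to 0.30.

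Txnrd1, which keeps thioredoxin reduced with NADPH, rose with age in STR, FT and CTX among the main zones, and in RT (0.83, adjusted p = 0.00213) and VS (0.85, adjusted p = 0.0485). In STR it stood at 57.3 and 59.0 CPM at P21, 39.5 and 40.2 CPM in adults, and 83.3 and 84.2 CPM in aged mice. Adults were thus the lowest of the 3 ages in this zone. The aged rise was 1.07 (SE 0.12, adjusted p = 2.84e-06), and P21 was higher than adult by 0.54 (SE 0.14, adjusted p = 0.0214), 1.45-fold and so not a call. FT rose by 0.76 (adjusted p = 1.46e-05) and CTX by 0.65 (adjusted p = 0.000339). CTX was below the fold without aged section 1 (0.51) and when thinned (0.58). TH was at 0.52 with 110 and 99.96 CPM in aged against 76.3 and 69.9 CPM in adult sections, and passed the fold without aged section 2 (0.59).

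The 6 main zones differed in the Txnrd1 change in both comparisons. In aged vs. adult the values ran from 0.22 in HP to 1.07 in STR (interaction, adjusted p = 0.000497594). In P21 vs. adult they ran from -0.24 in TH to 0.54 in STR (adjusted p = 0.00385936), a call lost without P21 section 2 (0.0816), adult section 1 (0.137) or adult section 2 (0.107). Over whole sections Txnrd1 was 47.6 and 47.5 CPM in adults and 67.1 and 59.3 CPM in aged mice (0.41, adjusted p = 0.000767), under the fold.

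Counted over the 6 main zones, 16 of the 42 pairs of a zone and a tested gene were called higher in aged sections and 0 were lower. FT held 5 of 7 genes against 30.7% of all genes called there in either direction, CTX 3 of 7 against 12.6%, STR 3 of 7 against 14.1%, HY 3 of 7 against 11.6%, TH 2 of 7 against 15% and HP 0 of 7 against 11.5%. In HP, 2 of 7 passed an adjusted p of 0.05 without the fold. The plot of fold changes by zone shows that the calls spread over Nfe2l2, Hmox1, Txnrd1, Gclm and Nqo1 and include neither Gclc nor Srxn1. At P21, 0 of 8 genes were called over whole sections by edgeR, against 8.06% of all genes. Of the 8, 3 had an unadjusted p under 0.05 (Maff, Nfe2l2 and Nqo1), Nfe2l2 and Nqo1 (-0.41, adjusted p = 0.0431) also passed the adjusted p without the fold, and DESeq2 called 1. In the 6 main zones 2 of 48 pairs (Maff in CTX and Nqo1 in FT) were called at P21, near the background. The Maff call uses the adult sections on which it was chosen. MEN held 2 lower calls (Nfe2l2 and Nqo1). The share of all genes called at P21 was 6.64% in CTX, 6.77% in HP, 7.76% in TH, 4.3% in HY, 3.75% in STR and 9.48% in FT.

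**Figure D2:**
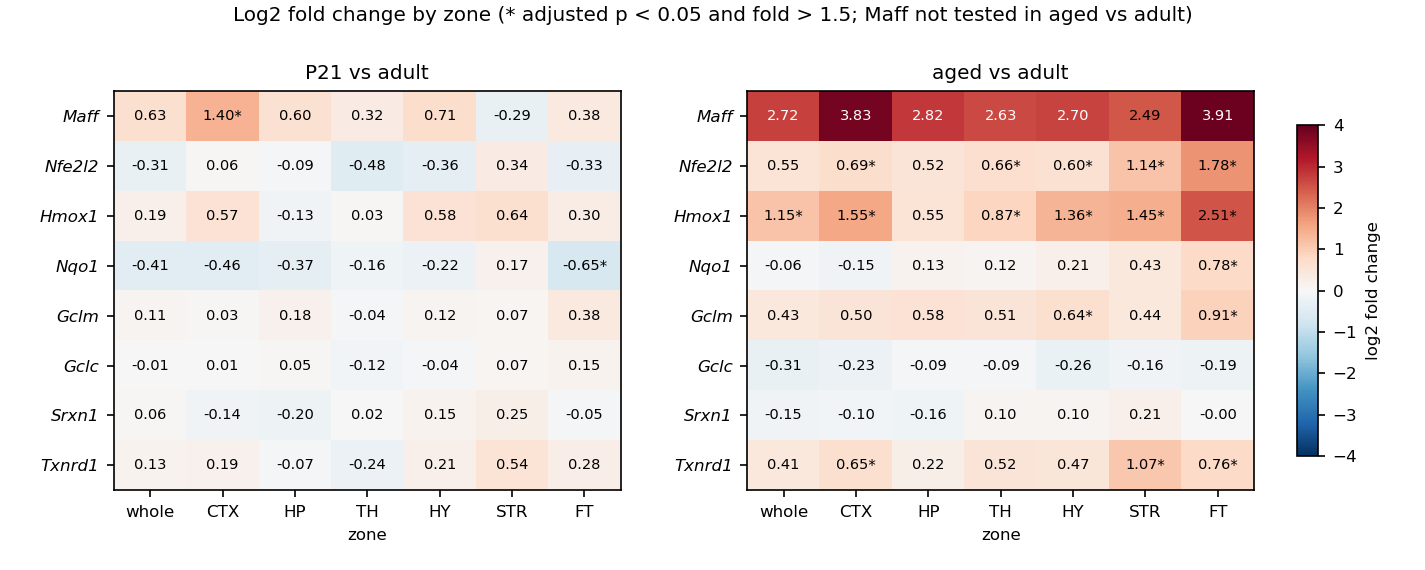
Log2 fold change of each gene (rows) over the whole section and in 6 zones (columns) for P21 vs. adult and aged vs. adult, coloured from -4 to 4, with a star where adjusted p was under 0.05 and the fold over 1.5. Maff carries no star in aged vs. adult because it was not tested there, and the FT column holds 5 stars.

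Where the genes sit in the brain was compared by setting each zone against the other 5 within sections, over all ages. Nfe2l2 (1.49 on the log2 scale, adjusted p = 2.58e-12) and Nqo1 (0.82, adjusted p = 2.9e-07) were higher in FT in 6 of 6 sections, as was Gclm (0.42, adjusted p = 1.1e-08). Hmox1 (0.77) was higher in FT in 5 of 6 sections and Maff (0.80) in 4 of 6. In the P21 and adult sections, Hmox1 in FT (4.89, 4.04, 3.86 and 3.58 CPM) lay below HP (5.01, 5.07, 5.46 and 5.55 CPM). In aged sections Hmox1 was at 22.6 and 19.9 CPM in FT and at 7.31 and 8.67 CPM in HP. The zone values of Maff include the aged sections on which it was chosen, so they are a description. Adult sections had 1.77 and 1.55 CPM of Maff in FT and 1.53 and 2.27 CPM in TH. Maff was at 1.69 and 1.90 CPM in adult HY and 1.42 and 2.84 CPM in adult STR, and lower in adult CTX and HP. FT is also where 67.7% of all genes differed from the other zones, 35.9% upward. Nfe2l2 (-0.85), Nqo1 (-0.63), Txnrd1 (-0.38), Maff (-0.47), Gclm (-0.16) and Gclc (-0.13) were lower in CTX, where 30.7% of genes were lower. The CTX value of Maff was -0.42 without adult section 1 and -0.37 without adult section 2.

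The thioredoxin genes had another map. Srxn1 was higher in TH by 1.23 (SE 0.059, adjusted p = 4.83e-17) in 6 of 6 sections, with 66.7 and 67.7 CPM at P21, 65.3 and 67.2 CPM in adults, and 75.5 and 66.3 CPM in aged mice. It was lower in FT (-0.70) and STR (-0.53) in 6 of 6 sections, where 31.8% and 19.1% of genes were lower. Txnrd1 was higher in TH as well (0.65, adjusted p = 1.63e-09, 6 of 6 sections), where 26.2% of genes were higher. Gclc was higher in STR by 0.25 (adjusted p = 3.38e-05, 6 of 6 sections), where 18% of genes were higher. In all, 26 of 48 pairs of a gene and a zone differed, counting Maff in CTX, HP and FT, which are a description. Of all genes, 57.4% differed in CTX, 51.6% in HP, 54.7% in TH, 49.1% in HY and 37.1% in STR.

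**Figure D3:**
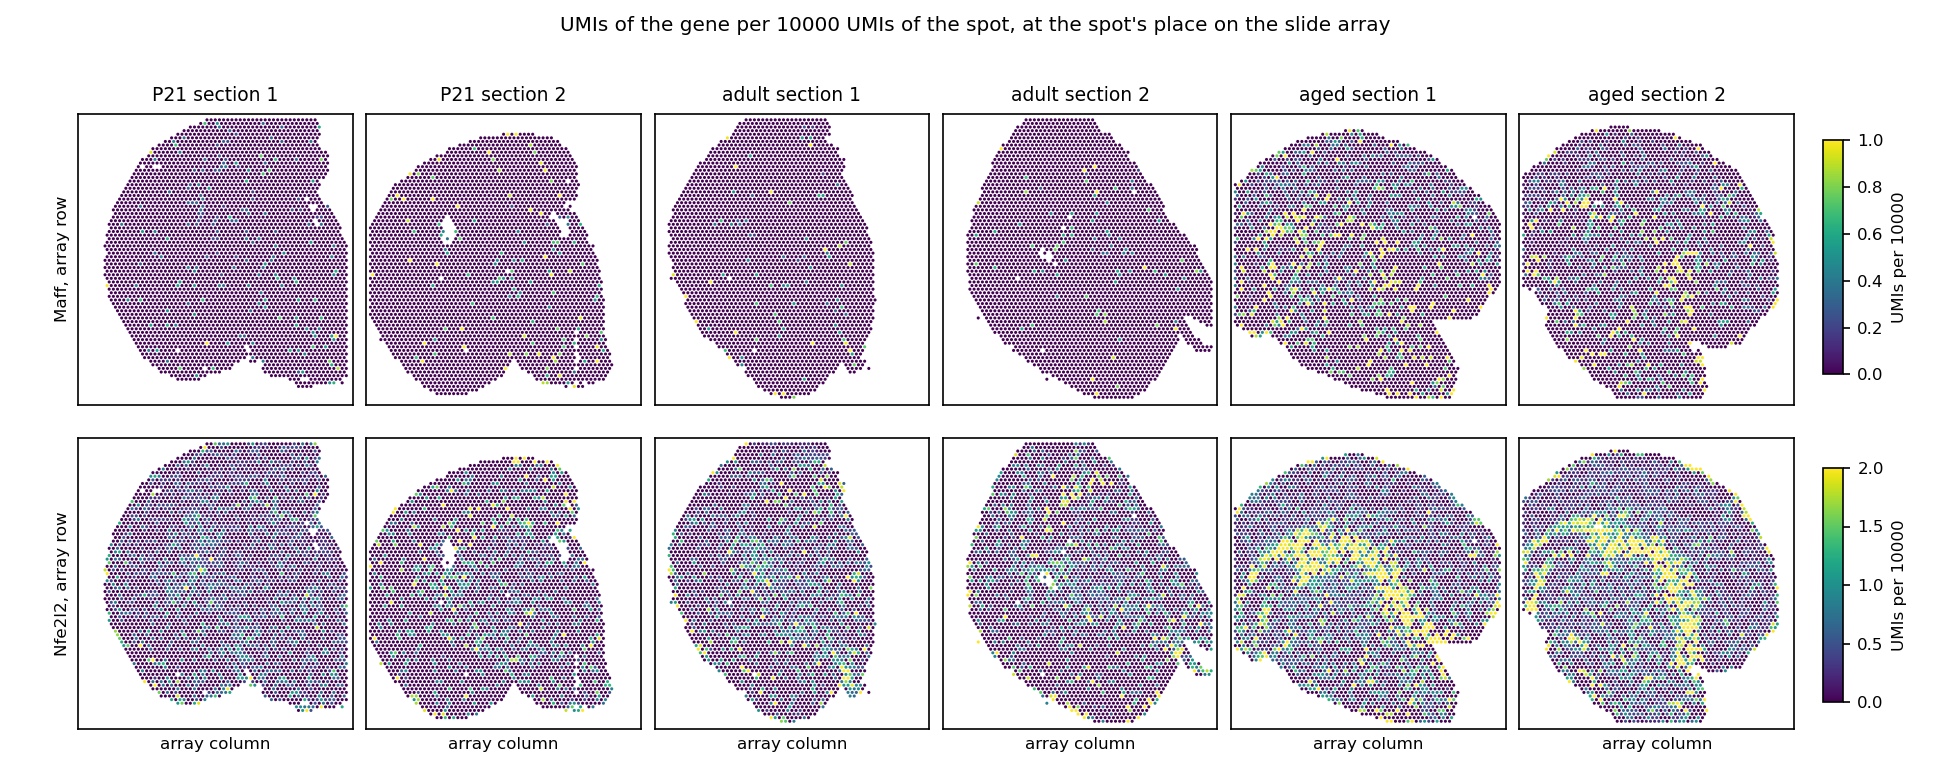
UMIs of Maff (upper row) and Nfe2l2 (lower row) per 10000 UMIs of a spot, drawn at the array column (x) and array row (y) of the spot for the 6 sections, with 1 colour scale per gene. Nfe2l2 fills the fiber tracts in both aged sections (165 and 162 CPM), and Maff is at 27.0 and 23.5 CPM there.

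Moran's I, a score of how far neighbouring spots resemble each other, is deposited by the authors for each section. Nfe2l2 scored 0.234 and 0.253 in aged sections, where its score was 0.075 and 0.065 in adults and 0.049 and 0.028 at P21. Among the genes of each section, Nfe2l2 was at the percentiles 90.5 and 90.0 in aged sections, 84.2 and 83.1 in adults and 75.0 and 70.8 at P21. Srxn1 stood between 0.078 and 0.129 in all 6 sections, at the percentiles 82.5 and 77.9 in aged sections and 84.7 and 88.5 in adults. Maff stayed at 0.035 or lower.

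Levels within 2 spot steps of the tissue edge were set against the rest of each section. None of the 8 genes passed an exact two-sided sign-flip permutation test over 6 sections after adjustment over the 8 (smallest p possible 0.03125). A gene that alone reached that p could not pass the adjustment, so the lack of calls decides little. By this exact test, Nqo1 was higher at the edge in 6 of 6 sections (mean log2 ratio 0.44, SD 0.28, p = 0.03125, adjusted p = 0.125) and Srxn1 lower in 6 of 6 (-0.21, SD 0.11, p = 0.03125, adjusted p = 0.125). Within 4 steps of the edge Srxn1 was still lower in 6 of 6 sections (-0.20), but Nqo1 was at 0.085 and higher in 3 of 6. Within CTX alone, at 2 steps, Nqo1 was at 0.012.

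Markers of several cell types differed between adult and aged fiber tracts. Summed markers of microglia and macrophages in FT were 674 and 765 plain CPM in adults and 2075 and 2194 in aged sections, with 7 of 10 tested markers higher and Lyve1 at 0 in some section. Astrocyte markers summed to 1775 and 1860 in adults and 4101 and 4400 in aged sections (3 of 6 higher). Neuron markers summed to 4778 and 4512 in adults and 2394 and 2302 in aged sections (4 of 6 lower). In CTX the microglial sums were 349 and 352 in adults and 374 and 355 in aged sections (0 of 10 called). They were 391 and 406 against 547 and 494 in TH (3 of 10 higher), 506 and 472 against 652 and 652 in STR (2 of 9), 429 and 461 against 835 and 767 in VS (4 of 9) and 403 and 439 against 633 and 693 in RT (4 of 8). The part of these cell types in the values of the 8 genes was not tested.

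FT was made of 2 clusters, and the aged spots were divided between them differently. The cluster led by C4b, Klk6 and C3 held 38.1% and 47.6% of adult FT spots but 78.0% and 83.7% of aged FT spots. Within that cluster Nfe2l2 went from 49.6 and 51.3 to 180 and 179 plain CPM, Hmox1 from 3.74 and 2.36 to 27.6 and 21.9, and Gclm from 66.8 and 59.0 to 125 and 123. Within the other, led by Thbs4, Opalin and Enpp6, Nfe2l2 went from 46.4 and 47.0 to 126 and 117 plain CPM and Hmox1 from 4.04 and 4.76 to 10.1 and 14.8. Those Hmox1 values rest on 16 and 16 UMIs in adult and 15 and 19 in aged spots. Maff stood at 2.34 and 0.675 in adult and 25.4 and 23.1 in aged spots of the first cluster, and at 1.51 and 2.38 against 31.1 and 25.8 in the second. The adult Maff values rest on only 5 and 2 UMIs in the first cluster and 6 and 8 in the second. The aged values of Nfe2l2, Hmox1 and Maff were the higher in both clusters. Cell type markers moved within the clusters too. Microglial sums went from 747 and 819 to 2364 and 2404 plain CPM in the first and from 635 and 717 to 1360 and 1535 in the second. Astrocyte sums went from 2613 and 2300 to 4535 and 4634 in the first and from 1322 and 1472 to 3027 and 3665 in the second. Neuron sums went from 3702 and 3699 to 1730 and 1860 in the first and from 5359 and 5229 to 4038 and 3693 in the second. Nqo1 was 14.6 and 12.8 in adult and 13.5 and 17.2 in aged spots of the second cluster, with the ages overlapping.

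The hippocampus, where no tested gene was called with age, also changed in makeup: spots of its matrix, outside the CA layers and the dentate gyrus, were 70.2% and 70.5% of adult HP spots and 52.2% and 51.9% of aged HP spots. The study, testing over spots and not over sections, lists Nfe2l2 as higher in aged hippocampus. It lists Nqo1 as higher in the aged hippocampal matrix. Within the matrix Nfe2l2 stood at 31.9 and 37.4 plain CPM in adults and 73.9 and 83.5 in aged sections, and Maff at 1.3 and 2.8 against 22.9 and 13.8. Txnrd1 was 70.6 and 77.6 plain CPM in adult dentate gyrus and 29.4 and 41.0 in adult CA3. It was 82.2 and 76.4 against 48.1 and 43.5 in the aged sections, so the dentate gyrus was the higher in each section of both ages.

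The partners and brakes of NRF2 came from a list of 10 other regulators, of which Mafg was not analysed here and 9 were counted. In FT, 2 of 7 tested were called higher in aged mice, where 18.3% of all genes were. Mafk, a small Maf like Maff, went from 18.2 and 15.5 plain CPM in adults to 49.0 and 47.5 in aged FT (1.54, adjusted p = 5.44e-09). Bach1, the repressor that competes with NRF2 for small Mafs, went from 26.7 and 26.9 to 38.5 and 42.03 (0.60, adjusted p = 0.00039). Keap1 (0.033), Nfe2l1 (-0.037), Bach2 (0.17), Rbx1 (0.21) and Cul3 (-0.48) were not called in FT. None of the list was called in the other 5 main zones. Over whole sections Mafk was at 0.36 and the single call was Nfe2 (2.67), which had under 0.3 plain CPM in every section. At P21, 0 of 8 tested regulators were called over whole sections, and those values ran from -0.35 (Nfe2l1) to 0.63 (Nfe2).

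Other NRF2 targets, 30 genes beside the 8, were followed next. In aged FT 11 of 28 tested were called higher and 0 lower, where 18.3% of all genes were higher, with a median of 0.43 against 0.033 over all genes. Iron storage and glutathione genes among them were Fth1, the ferritin heavy chain, at 11072 and 11911 plain CPM in adults and 24709 and 22455 in aged sections (1.05), Gstm1 (1.01), Mgst1 (1.12) and the exporter Abcc4 (1.44). NADPH-supplying enzymes were G6pdx (1.24), Me1 (0.82) and Pgd (0.77). The peroxiredoxin Prdx6 rose from 243 and 253 to 582 and 655 plain CPM (1.33), and Blvra (0.64), Ugdh (0.68) and Osgin1 (1.47) completed the set. For Prdx6, too, the study's supplement gives the opposite direction in aged fiber tracts.

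**Figure D4:**
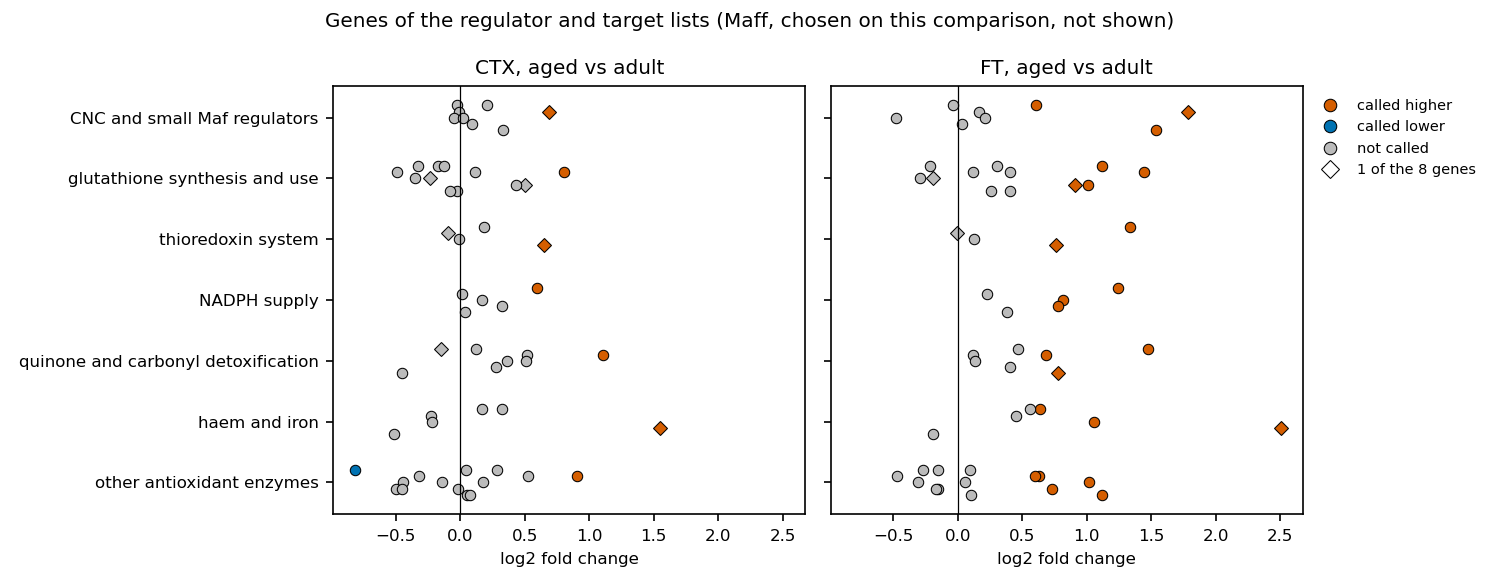
Log2 fold change in aged vs. adult (x axis) of each gene of the regulator and target lists in CTX and FT, with circles for listed genes, diamonds for members of the 8, and colour for the call. In FT 11 of the 28 other targets are called higher and 0 lower, and in CTX 3 of 29.

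Outside FT the same targets gave 3 higher and 0 lower of 29 in CTX, 1 and 1 of 27 in HP, 1 and 2 of 29 in TH, 2 and 1 of 28 in HY, 2 and 0 of 27 in STR, and 2 and 2 of 30 over whole sections (median 0.058 against 0.041). Of all genes, 12.6% were called in either direction in CTX, 11.5% in HP, 15% in TH, 11.6% in HY, 14.1% in STR and 28.4% over whole sections. With both directions together these counts lay below that background. Higher calls alone were 7.91% of all genes in CTX, 7.59% in TH, 6.71% in HY, 8.05% in STR and 23.8% over whole sections. The higher counts in CTX and HY were not below those shares. In CTX the 3 higher calls were Abcc4 (0.80), G6pdx (0.60) and Osgin1 (1.10). Antioxidant enzymes outside the target lists gave 5 higher and 0 lower of 14 in FT (median 0.076) and 1 higher and 2 lower of 14 over whole sections. Slc7a11, the cystine importer for glutathione synthesis, fell by 0.75 over whole sections and by 0.93 in HP, and the iron exporter Slc40a1 fell by 0.72. At P21, whole sections gave 3 higher and 2 lower of 30, where 8.06% of all genes were called in either direction. Gss, glutathione synthetase, was at 0.81, Idh1 at 0.75, Fth1 at -1.02 and Gstm1 at -0.94. The third higher call was Gpx2 (2.85), among the near-silent genes, as it was in aged sections (4.28). In FT at P21 the counts were 3 higher (Idh1 1.53, Gss 1.34, Pgd 0.79) and 4 lower of 28 (Fth1 -1.28, Gstp1 -1.12, Gstm1 -1.01, Slc7a11 -0.64). Of all genes there, 9.48% were called in either direction and 3.89% were lower. Oligodendrocyte markers in FT summed to 70615 and 80158 plain CPM at P21 against 38281 and 36834 in adults (6 of 6 higher). Erythrocyte markers summed to 2210 and 1144 at P21 against 315 and 145 in adults (4 of 4 higher). Their part in the P21 values was not tested.

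Across the 36 sums of 6 zones in 6 sections, each gene was set against 11495 genes of at least 5 CPM on average by Pearson's r of log2(CPM + 1). These r values describe points that share libraries, depth and zones. Nfe2l2 was most like Ctss (0.963) and C1qb (0.959), and after each section's mean was subtracted like Wasf2 (0.964), Kif1c (0.962) and Ctss (0.961). Srxn1 was most like Snrk (0.933), Slc25a33 and Chrnb2, and within sections like Dnajc15 (0.942) and Txn1 (0.938), the thioredoxin gene. Maff was most like Rgl2 (0.939), Vsir (0.938) and Mat2a (0.937), and within sections like Ifngr1 (0.826). Hmox1 was most like Cebpa both ways (0.912 and 0.817).

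Nqo1 was most like Pea15a (0.890), Gclm most like Sat1 (0.926), Gclc most like Pde1b (0.808) and Txnrd1 most like Ctnnb1 (0.857). Within sections, the leading genes were S100a11 for Nqo1 (0.928), Tmem268 for Gclm (0.918), Gnal for Gclc (0.846) and Pycr1 for Txnrd1 (0.878). Among the 8 genes themselves, within sections, r was 0.83 for Nfe2l2 and Nqo1, 0.75 for Nfe2l2 and Gclm, and 0.70 for Srxn1 and Txnrd1. It was 0.030 for Gclm and Gclc and -0.47 for Hmox1 and Srxn1.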

How the data were processed

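Visium probe-based profiles of FFPE brain sections, 2 per age, were read from the deposited matrices, which hold raw UMI counts per gene and spot made by the authors with Space Ranger (per the file headers version 3.1.1 for aged and 2.0.0 for the other sections; the labels' processing notes name 2.1.0, Seurat 5.1.0 and mm10). The deposited score table gives Moran's I per gene and section, and the deposited position files give array rows and columns, an other kind of value. Spots with at least 250 genes and 500 UMIs were kept (20336). Both slide versions reuse their array barcodes, so shared barcodes do not mark shared cells.

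The genes, lists and tests were chosen with earlier results of these data known. Named were the 8 genes, all listed regulators, the called genes of the target lists, and the 3 genes most like each of the 8 (for some, only the first is printed, and 1 gene is not reported here). Spots were clustered over all sections (log counts, 3000 variable genes, 10 principal components, 20 neighbours, Leiden 0.10.2 at resolution 0.5) with 101 stress and pathway genes kept out. Cell type markers and other genes that differ with age were not kept out. Of 15 clusters, 14 were named from marker panels, and 10.1% of spots stayed unnamed. Counts were summed per section and zone, genes with low counts were filtered, and edgeR 4.0.16 (R 4.3.3) fitted all 3 ages with TMM scaling and quasi-likelihood tests, with Benjamini-Hochberg adjustment over all genes. Zone preference and zone-by-age interaction used 1 fit of the 6 main zones with sections as blocks. Reads of 1 spot or section are not independent animals, and 2 sections per age limit the precision. On simulated data the aged vs. adult fit recovered 67.4% of genes changed 1.5-fold and 81.8% of genes changed 2-fold over whole sections, and 57.7% and 87.4% in FT. Alternatives were plain CPM, DESeq2 1.42.0, other filters, thinning, other zones and leaving out each section. They covered whole sections and the 6 main zones, so calls in VS, RT and MEN were not checked by them.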

Additional observations from a re-analysis of the deposited data

Results flagged for a closer look

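A closer look was given to 5 results because the change with age differed between zones by an interaction test across the 6 main zones. In aged vs. adult these were Nfe2l2 (adjusted p = 2.19631e-07, from 0.52 in HP to 1.78 in FT on the log2 scale), Hmox1 (adjusted p = 0.00307618, from 0.55 in HP to 2.51 in FT) and Txnrd1 (adjusted p = 0.000497594, from 0.22 in HP to 1.07 in STR). In P21 vs. adult these were Nfe2l2 (adjusted p = 0.0248958, from -0.48 in TH to 0.34 in STR) and Txnrd1 (adjusted p = 0.00385936, from -0.24 in TH to 0.54 in STR). Over all genes this test called 38.8% in aged vs. adult and 9.22% in P21 vs. adult. Both P21 calls and the Hmox1 call depended on single sections, as given above. Both comparisons use the same adult sections, and STR holds 1137 spots over all sections. No group had enough sections for a check of single outlying sections.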

How the results depend on the processing

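With 2 sections per age, 1 library carries much of each group, and Maff and Hmox1 rest on few UMIs in adult sections. Among the 8 genes, calls over whole sections in P21 vs. adult were 0 and became 1 with DESeq2, with no filter on low counts, when thinned to the lowest total and with the replicate number as a block, and 0 to 1 when 1 section was left out. By zone the 2 calls became 1 with DESeq2, with the detection criteria of the study, when thinned and with the replicate block, 0 with marker-panel zones, and 0 to 2 when 1 section was left out. In aged vs. adult the 1 whole-section call among 7 genes became 2 with plain CPM and when thinned, and 1 to 2 with a section left out. The 16 calls by zone ran from 14 to 16 under other settings and from 11 to 18 with a section left out. Zone preference, with 26 calls, gave 23 to 28, and 20 to 25 with a section left out. Interaction calls at P21 went from 2 to 1 with marker-panel zones and with inner spots, and 0 to 2 with a section left out. In aged vs. adult they went from 3 to 5 with plain CPM, and 2 to 4 with a section left out.

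Signs turned for Gclc in whole P21 sections without P21 section 2 (0.030 against -0.010, sections left out in turn -0.056 to 0.030), for Nqo1 in whole aged sections with plain CPM (0.049), without adult section 1 (0.11) and without aged section 2 (0.054) against -0.056 (sections left out in turn -0.24 to 0.11), and in HY against other zones with marker-panel zones for Nqo1 (-0.018 against 0.21) and Gclm (-0.040 against 0.046). The cause was not tested. Over all genes, the detection criteria of the study cut the whole-section calls from 1460 to 571 in P21 vs. adult and from 5148 to 1017 in aged vs. adult, as fewer genes were tested. Leaving out P21 section 2 gave 949, and by zone the 5263 P21 calls became 2575 without P21 section 1 and 3396 without P21 section 2.

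The replicate numbers do not pair the sections: their deviations correlated at 0.0214 between P21 and adult, -0.142 between aged and adult and -0.0348 between P21 and aged. With the replicate number as a block the calls among the 8 genes were 1 and 1 at P21 (whole, by zone) and 1 and 16 in aged vs. adult. With the numbers crossed in the aged sections the replicate block gave 1 and 2 at P21 and 1 and 16 in aged vs. adult.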
